A study of Rattus norvegicus with 18 samples.

Results

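The Egr (early growth response) transcription factors Egr1, Egr2, Egr3 and Egr4 were followed in the neocortex and hippocampal formation of rats that were kept from paradoxical sleep (rapid eye movement sleep) or allowed to regain it. Their probe sets were taken by symbol from the platform annotation, which gave 6 probe sets of 31099 for the 4 genes. Egr1 was measured by 1368321_at, Egr2 by 1387306_a_at and 1398266_a_at, Egr3 by 1369545_at, and Egr4 by 1387442_at and 1375784_at. A filter on dim probe sets (mean signal under 19.7) kept 18625 probe sets. It kept 3 of the 6 Egr probe sets, the first named for Egr1, Egr2 and Egr4, so Egr3 was left without a tested probe set.

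All rats were male Sprague-Dawley animals carrying implanted electrodes for recording brain waves and muscle tone. Control rats stayed in standard conditions in the home cage. Deprived rats were kept from paradoxical sleep for 78 h by the flowerpot method: the animal lives on small platforms surrounded by water, and the loss of muscle tone at the onset of this sleep wakes it. Recovery rats had 72 h of deprivation and then slept freely for 6 h. No group was kept on platforms with its sleep intact, so loss of paradoxical sleep and life on the platforms cannot be told apart. There were 12 rats per state, divided into 2 sets, and equal amounts of RNA from the 6 rats of a set were pooled for each structure (right side). Each of the 6 groups of structure and state therefore had n = 2 pools, and the same rats gave a neocortical and a hippocampal pool. For set 1 the pooling was repeated, and the values of its 2 arrays were averaged. Set 2 had 1 array for each group, and the arrays numbered 18 in all.

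Egr proteins are zinc finger transcription factors whose genes are switched on within minutes in neurons by synaptic activity, through calcium and MAP kinase signalling, without the need for new protein. Serum response factor, through the CArG box, and the transcription factor CREB, through elements with the letters TGACGT, bind the promoters of these genes. Egr1 (also called Zif268) is widely used as a marker of neuronal activity and is needed for lasting synaptic potentiation and memory, Egr2 (Krox20) also drives myelination by Schwann cells, Egr3 is needed for muscle spindles, and Egr4 is expressed in brain and germ cells.

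The promoters are shown because Egr2 and Egr4, whose signals are given below, differ in their exact matches to these elements. Sites with a mismatch were not counted. The RefSeq-based table (build GRCr8) held 3 of the 4 Egr genes, Egr1, Egr2 and Egr4. The 250 bases before the annotated start were searched on both strands for the CArG box, for TGACGT and for GCGNGGGCG, a site bound by Egr proteins, and the motifs do not overlap in these promoters. The Egr2 window is chr20:21054442-21054691 and the Egr4 window chr4:119607818-119608067, both on the minus strand, and capitals mark the CArG box and TGACGT, the latter written ACGTCA where it lies on the other strand.
Egr2: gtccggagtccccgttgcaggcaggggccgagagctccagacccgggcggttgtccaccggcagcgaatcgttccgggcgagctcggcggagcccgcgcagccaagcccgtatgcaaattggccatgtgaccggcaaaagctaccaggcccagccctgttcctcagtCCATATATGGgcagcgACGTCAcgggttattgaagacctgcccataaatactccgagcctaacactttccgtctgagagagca
Egr4: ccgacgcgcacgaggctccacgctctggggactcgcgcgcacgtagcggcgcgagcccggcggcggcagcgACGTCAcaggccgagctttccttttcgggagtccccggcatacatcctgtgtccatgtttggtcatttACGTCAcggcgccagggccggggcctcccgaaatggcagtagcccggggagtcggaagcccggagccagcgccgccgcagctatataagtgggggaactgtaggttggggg
In Egr2 the CArG box lay 83 to 74 bases before the start and TGACGT 67 to 62 bases before it. Egr1 had a CArG box and a TGACGT at those same distances, together with another CArG box at 105 to 96 and another TGACGT at 136 to 131 bases. Egr4 had no exact match to the CArG box and had TGACGT at 179 to 174 and at 111 to 106 bases. Of 33469 promoters of this length 1.5% held a CArG box, 6.95% held TGACGT and 0.0747% held both, as those of Egr1 and Egr2 did. At least 2 CArG boxes, as in Egr1, were present in 0.0209%, and at least 2 matches to TGACGT were counted in 1.89%. Overlapping matches to TGACGT on opposite strands can count as 2 there. The 1.89% is therefore not the share with 2 separate TGACGT sites, which Egr1 and Egr4 have. GCGNGGGCG matched none of the 3 Egr windows and 4.29% of all promoters. These matches describe letters only.

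**Figure D1:**
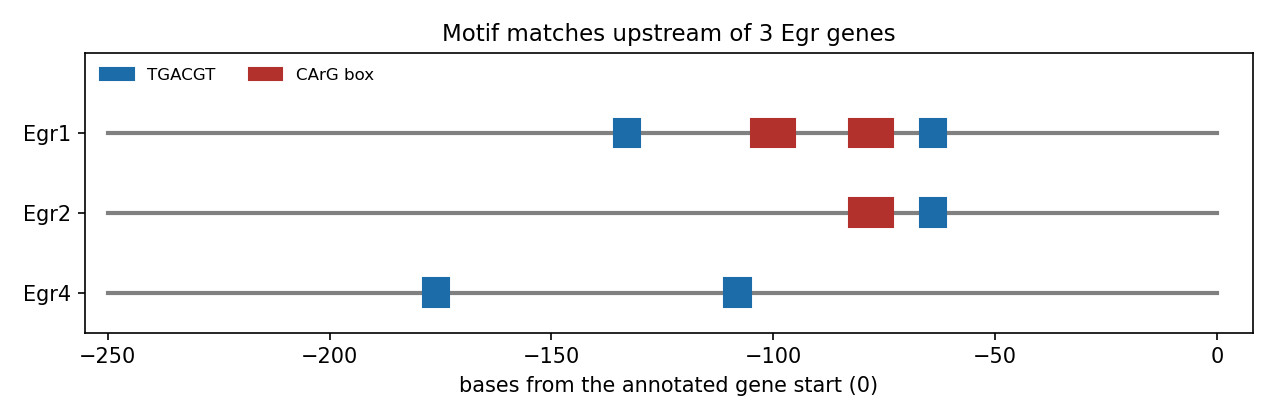
Matches to the CArG box and to TGACGT in the 250 bases before the annotated start of Egr1, Egr2 and Egr4, by distance from the start in bases. Egr1 and Egr2 share a CArG box at 83 to 74 bases and a TGACGT at 67 to 62 bases. Egr4 has 2 TGACGT matches and no exact match to the CArG box.

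Across the series, hippocampal and neocortical tissue had their own markers. Of the 9 hippocampal neuron markers kept, 9 were higher in the hippocampal formation (median log2 difference 2.03). Of the 10 neocortical neuron markers 6 passed the test (median -0.857, 2 of the 10 above 0), and 7 of 7 striatal neuron markers were lower (median -1.72). This test between structures was passed by 19.9% of all kept probe sets. The hippocampal pools of set 2 stood apart from those of set 1 on the first principal component (0.3 to 10.01 against 37.94 to 46.57). On the second component the sets stood apart in both structures. Set 2 lay at -8.2 to -7.74 against 21.02 to 22.08 in the neocortex, and at -23.49 to -22.06 against 3.96 to 12.42 in the hippocampal formation. Values are therefore given within each set. In no comparison between states did limma call any of the 18625 probe sets at an adjusted p under 0.05 (0% in each comparison, and 169 to 301 at an unadjusted p under 0.05). With the set as a block it called 0 to 2, and 849 to 1363 had an unadjusted p under 0.05. The fit without the block leaves differences between the sets in its spread, so its p-values tend to be larger. The adjusted p-values below come from that fit unless the block is named. Each comparison below carries its own background, the share of kept probe sets whose pools also did not overlap. Among 6 neocortical pools and 6 hippocampal pools the comparisons within a structure share their control or deprived pools, so their values stand side by side and are not independent. In bulk tissue, fewer cells of a type and less RNA per cell cannot be told apart.

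In the deprived neocortex the signals of Egr1 and Egr2 lay above control in both sets of rats, and that of Egr4 did not. Egr1 had signals of 749.5 and 906.5 in the control pools (set 1 and set 2, as in every pair below) and 1004 and 1074 in the deprived pools. Egr2 had 38.15 and 27.3 in control and 54.78 and 55.8 in deprived pools. For both genes each deprived pool was above each control pool, which held for 13.1% of all kept probe sets. Egr1 was 1.26-fold higher (log2 difference 0.33, SE 0.143, 95% interval 0.013 to 0.654, limma adjusted p = 1). Egr2 was 1.71-fold higher (log2 difference 0.78, SE 0.281, 95% interval 0.15 to 1.404, limma adjusted p = 1). By unadjusted p they ranked 168 and 63 of 18625, or 104 and 227 with the set as a block. Within the sets Egr1 differed by 0.422 and 0.245 and Egr2 by 0.522 and 1.031 on the log2 scale. With a pool left out Egr1 ran from 0.2 (without control set 1) to 0.47 and Egr2 from 0.54 (without control set 2) to 1.02. Egr4 had 82.26 and 87.5 in control and 78.83 and 103.5 in deprived pools, so its groups overlapped (log2 difference 0.09, 95% interval -0.293 to 0.474, limma adjusted p = 1).

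In the deprived hippocampal formation none of the 3 Egr genes was above control. Egr1 had signals of 605.9 and 743.2 in control and 551.3 and 686.9 in deprived pools, and Egr2 had 28.54 and 41.3 against 26.99 and 34.8. Their groups overlapped, and within each set the deprived pool was the lower one. The log2 differences were -0.125 for Egr1 (95% interval -0.446 to 0.196) and -0.164 for Egr2 (95% interval -0.791 to 0.463), each with a limma adjusted p = 1. Egr4 was the gene whose deprived pools, at 52.95 and 64, lay below both control pools, at 73.55 and 67.2. Its log2 difference was -0.272 (95% interval -0.656 to 0.111, limma adjusted p = 1), and 9.33% of all kept probe sets had deprived pools below control without overlap. The sets of Egr4 were unequal, at -0.474 and -0.07, and with a pool left out its value ran from -0.41 to -0.14 (without deprived set 1). Leaving out a pool in turn moved the Egr1 difference between -0.28 and 0.03 and that of Egr2 between -0.43 and 0.1, with a value above 0 without control set 2 (0.02 for Egr1, 0.1 for Egr2) or without deprived set 1 (0.03 for Egr1, 0.02 for Egr2).

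**Figure D2:**
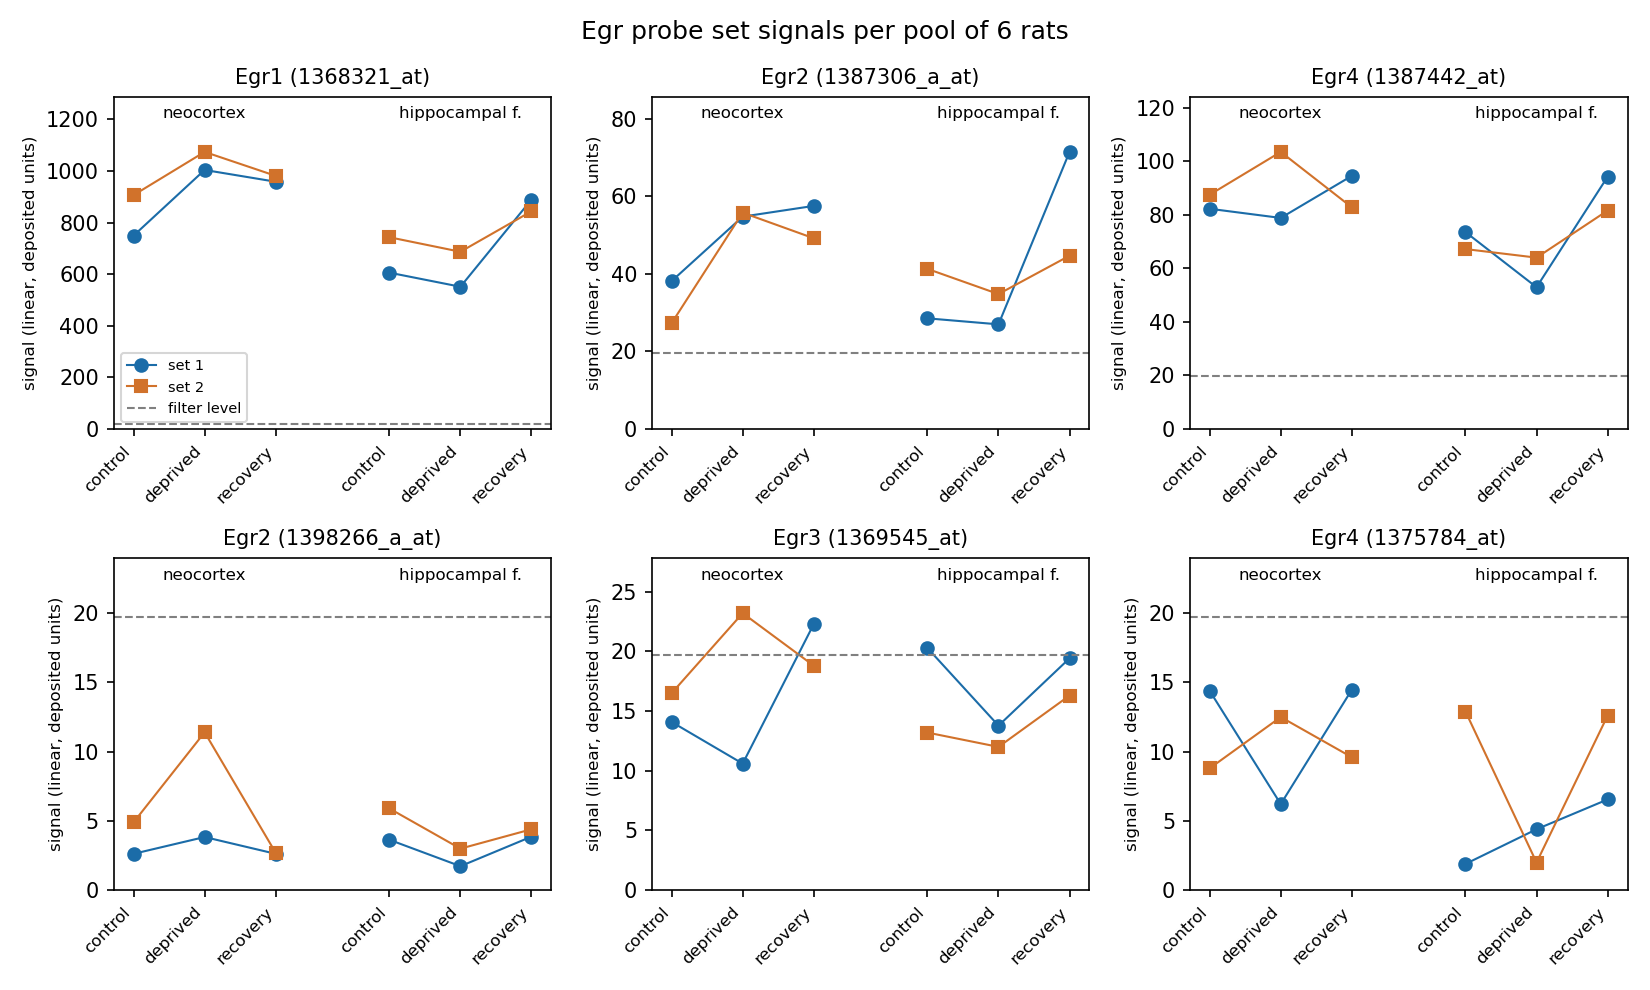
Signal (linear scale, deposited units) of the 6 Egr probe sets in each of the 12 pools, by structure and state, with set 1 and set 2 marked apart and the filter level (19.7) as a dashed line; the upper row holds the tested probe sets. Lines join pools of the same set, which are different rats in each state. Egr1 and Egr2 lie above control in deprived neocortex and in recovery of both structures, and Egr4 lies highest within the hippocampal formation in recovery.

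The difference between the structures in the response to deprivation was tested on the hippocampal minus neocortical values of the same rats. It was -0.46 for Egr1 (rank 9 of 18625 by unadjusted p in limma), -0.94 for Egr2 (rank 143) and -0.36 for Egr4, each with an adjusted p = 1. With the set as a block the ranks of Egr1 and Egr2 were 16 and 209. For Egr1 and Egr2 both sets were above control in the neocortex and below it in the hippocampal formation, a pattern shared by 5.4% of all kept probe sets. Leaving out control set 2 took the Egr2 value to -0.43 and leaving out control set 1 to -1.45, while Egr1 ran from -0.57 to -0.35 and Egr4 from -0.47 to -0.25 with an animal pool left out. In the control rats Egr1 in the hippocampal formation was below the neocortex by -0.307 and -0.287 on the log2 scale, and in the deprived rats by -0.865 and -0.645.

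After 6 h of recovery Egr1 and Egr2 in the neocortex were still at about the level of the deprived rats. Egr1 had signals of 958.4 and 981.2 and Egr2 of 57.55 and 49.2, each recovery pool being above each control pool, as for 11.9% of kept probe sets. Against control Egr2 was 1.65-fold higher (log2 difference 0.72, 95% interval 0.094 to 1.349, limma adjusted p = 1). Egr1 was 1.18-fold higher (log2 difference 0.235, 95% interval -0.086 to 0.555, limma adjusted p = 1). The sets gave 0.355 and 0.114 for Egr1 and 0.593 and 0.85 for Egr2. With a pool left out Egr1 ran from 0.1 (without control set 1) to 0.37 (without control set 2) and Egr2 from 0.48 to 0.96. Against the deprived rats the log2 differences were -0.099 for Egr1 (95% interval -0.419 to 0.222) and -0.055 for Egr2 (95% interval -0.682 to 0.572), with a limma adjusted p = 1. The recovery pools of Egr1 lay below the deprived pools without overlap, as did 12.5% of kept probe sets, while those of Egr2 overlapped. Egr4, at 94.55 and 82.8 in recovery, overlapped with both other states.

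In the recovering hippocampal formation all 3 tested Egr genes had their highest signals of that structure in both sets. Egr1 had 889.3 and 843.9, Egr2 had 71.48 and 44.7, and Egr4 had 94.22 and 81.6, and each recovery pool lay above each control and each deprived pool. Without overlap, 10% of kept probe sets were above control and 11.8% above the deprived state. Against control Egr1 was 1.29-fold higher (log2 difference 0.37, 95% interval 0.048 to 0.689, limma adjusted p = 1). Egr2 was 1.65-fold higher (0.72, 95% interval 0.092 to 1.346, limma adjusted p = 1), and Egr4 1.25-fold higher (0.32, 95% interval -0.065 to 0.702, limma adjusted p = 1). The value of Egr2 came mostly from set 1, where it was 1.325 against 0.114 in set 2, and that of Egr1 was also larger in set 1 (0.554 against 0.183). For Egr4 the sets gave 0.357 and 0.28. With a pool left out Egr1 ran from 0.22 (without control set 1) to 0.52, Egr2 from 0.38 (without recovery set 1) to 1.06 and Egr4 from 0.21 (without recovery set 1) to 0.42.

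Recovery and deprivation stood furthest apart in the hippocampal formation. Egr1 was 1.41-fold (log2 difference 0.49, 95% interval 0.173 to 0.814), Egr2 1.84-fold (0.88, 0.256 to 1.51) and Egr4 1.51-fold (0.59, 0.207 to 0.975) higher in recovery, each with a limma adjusted p = 1. They ranked 18, 36 and 17 of 18625 by unadjusted p, or 12, 157 and 105 with the set as a block. Within the sets the log2 differences were 0.69 and 0.297 for Egr1, 1.405 and 0.361 for Egr2, and 0.831 and 0.35 for Egr4, so set 1 had the larger value for each gene. With a pool left out they ran from 0.33 to 0.65 for Egr1, from 0.54 (without recovery set 1) to 1.22 for Egr2 and from 0.45 to 0.73 for Egr4. The contrast with the neocortex, in the same rats, was 0.59 for Egr1 (rank 4), 0.94 for Egr2 (rank 237) and 0.62 for Egr4 (rank 42), each with a limma adjusted p = 1. With the set as a block those ranks were 4, 306 and 107. For Egr1 both sets were below the deprived state in the neocortex and above it in the hippocampal formation, as for 7.27% of kept probe sets. For recovery against control that contrast was 0.134 for Egr1, -0.002 for Egr2 and 0.258 for Egr4. Egr1 and Egr2 were above control without overlap in recovery of both structures, as were 1.77% of kept probe sets.

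**Figure D3:**
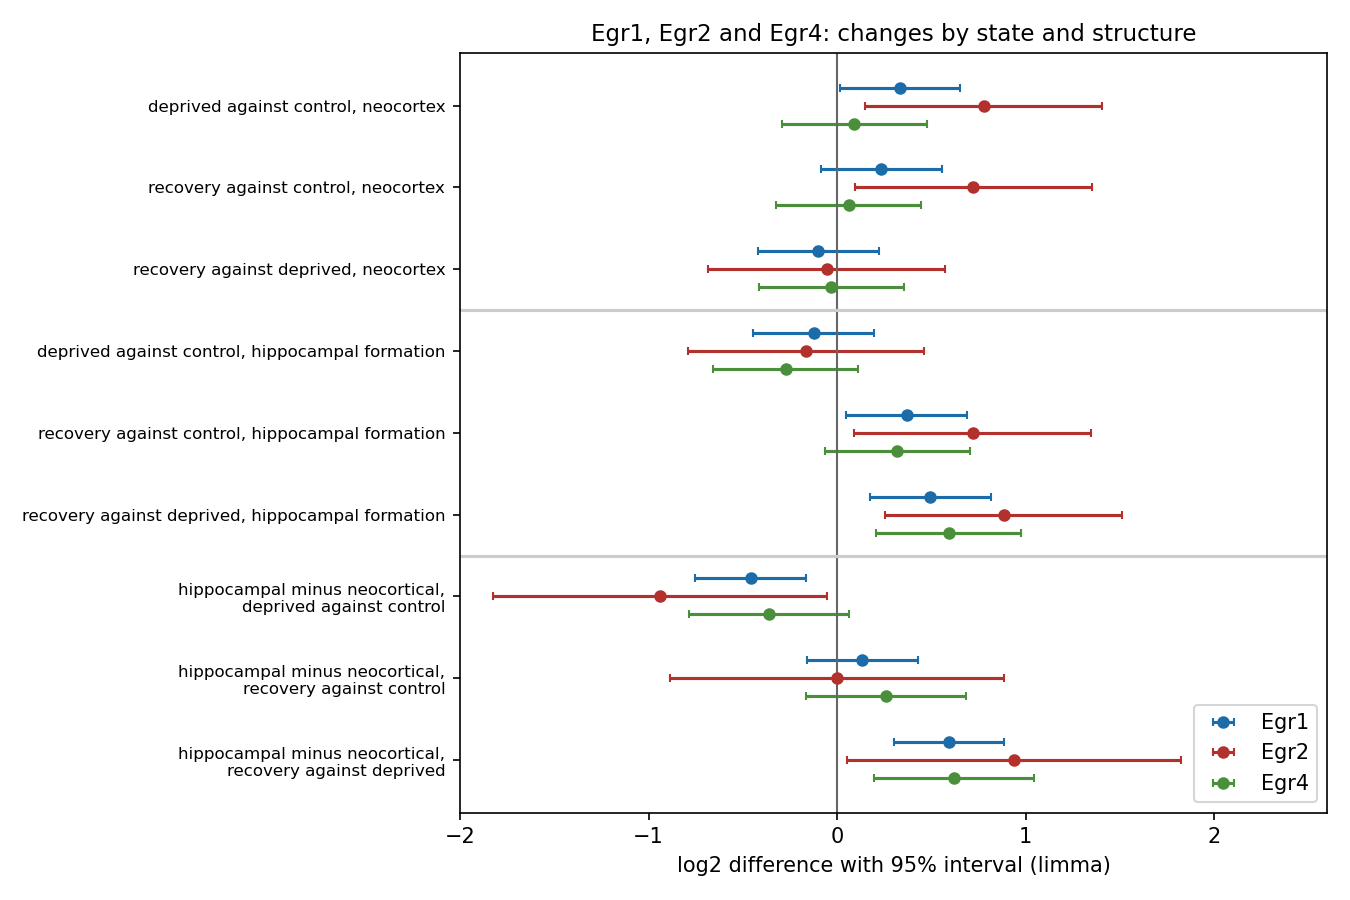
Log2 differences between states for Egr1, Egr2 and Egr4 in the neocortex (top) and in the hippocampal formation (middle), and the hippocampal minus neocortical difference of each (bottom). Points are limma estimates from n = 2 pools per group and bars are 95% intervals, not adjusted for the number of probe sets. The intervals of all 3 genes lie above 0 for recovery against deprived in the hippocampal formation, where every adjusted p = 1.

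Ordered by mean signal, Egr1 ran from deprived neocortex (1040, log2 10.02 ± 0.069) through recovery neocortex (970, 9.92 ± 0.024), recovery hippocampal formation (866, 9.76 ± 0.0534), control neocortex (824, 9.69 ± 0.194) and control hippocampal formation (671, 9.39 ± 0.208) to deprived hippocampal formation (615, 9.27 ± 0.224; SD, n = 2 pools). The pools of recovery hippocampal formation lay within the range of control neocortex, those of control and deprived hippocampal formation overlapped, and other neighbours in this order did not. For Egr2 the order was recovery hippocampal formation (56.5, 5.82 ± 0.479), deprived neocortex (55.3, 5.79 ± 0.0188), recovery neocortex (53.2, 5.73 ± 0.16), control hippocampal formation (34.3, 5.1 ± 0.377), control neocortex (32.3, 5.01 ± 0.341) and deprived hippocampal formation (30.6, 4.94 ± 0.259; SD, n = 2 pools). Neighbours overlapped within the upper 3 and within the lower 3 groups of Egr2, with a gap between 41.3 and 44.7. Egr4 had its upper 4 groups close together, from deprived neocortex (90.3, 6.5 ± 0.278) through recovery neocortex (88.5, 6.47 ± 0.135) and recovery hippocampal formation (87.7, 6.45 ± 0.147) to control neocortex (84.8, 6.41 ± 0.063; SD, n = 2 pools). Control (70.3, 6.14 ± 0.0921) and deprived hippocampal formation (58.2, 5.86 ± 0.193; SD, n = 2 pools) came below, without overlap with the group next above.

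Over all states Egr1 and Egr4 were lower in the hippocampal formation than in the neocortex of the same rats. Egr1 was 1.32-fold lower (log2 difference -0.405, SE 0.0508, limma adjusted p = 0.00213) and was the lower one in 6 of 6 animal pools. Egr4 was 1.24-fold lower (log2 difference -0.306, SE 0.0734, limma adjusted p = 0.0282), also in 6 of 6, although in recovery by only -0.005 and -0.021. Of all kept probe sets 19.9% passed this test, 10.5% with the lower value in the hippocampal formation, and 14.8% were lower in 6 of 6 animal pools. Egr2 had a log2 difference of -0.225 (SE 0.153, limma adjusted p = 0.324), and the pools differed in sign. Egr4 lost its call when any 1 animal pool was left out (adjusted p 0.052 to 0.106), and Egr1 kept it (0.00617 to 0.0167). In the control rats alone Egr4 differed by -0.161 and -0.381.

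**Figure D4:**
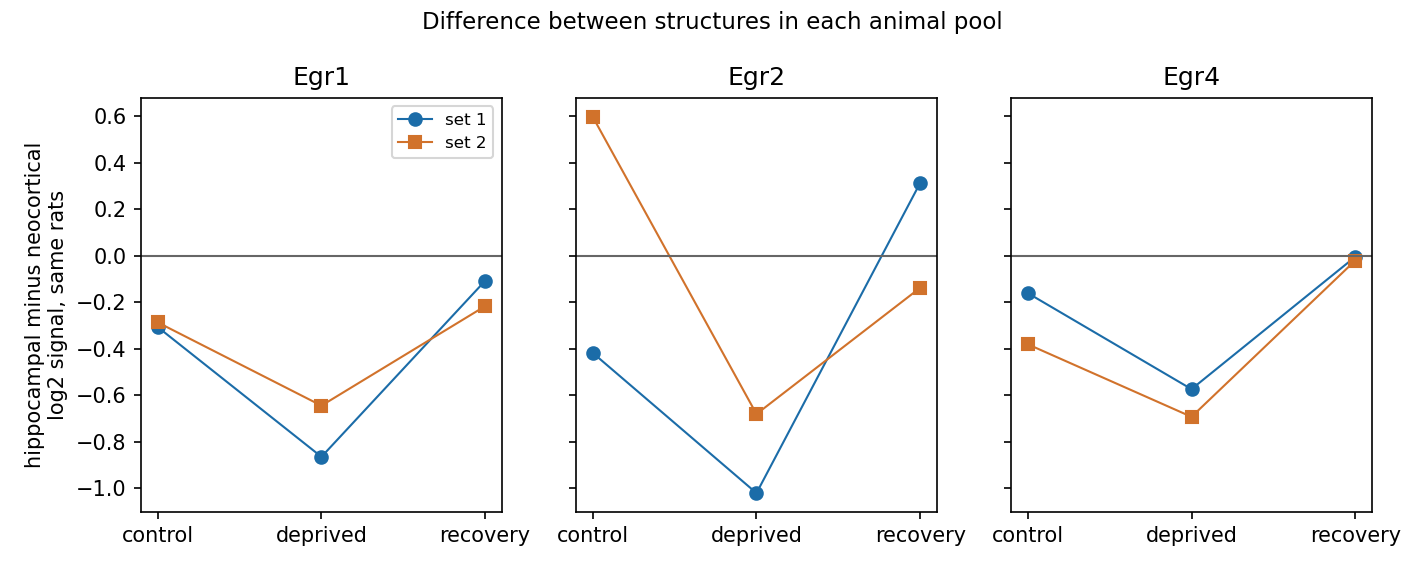
Hippocampal minus neocortical log2 signal of Egr1, Egr2 and Egr4 in each of the 6 animal pools, by state and set. Values of Egr1 and Egr4 lie below 0 in 6 of 6 pools, lowest in the deprived rats (Egr1 -0.865 and -0.645), and Egr2 has values on both sides.

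The remaining probe sets gave little signal. Egr3 ranged from 10.6 to 23.2 over the 12 pools, with 9 of 12 under the filter level of 19.7. It had 14.09 and 16.5 in control, 10.6 and 23.2 in deprived and 22.28 and 18.8 in recovery neocortex, and 20.28 and 13.2 in control, 13.78 and 12 in deprived and 19.42 and 16.3 in recovery hippocampal formation. The second Egr2 probe set (1.73 to 11.4) and the second Egr4 probe set (1.9 to 14.5) were under that level in 12 of 12 pools, and no detection calls were used here. For these dim probe sets neither the size nor the direction of a difference between states can be read. The 2 arrays of a pool differed by up to 2.79 (Egr2) and 2.92 (Egr4) on the log2 scale, and single arrays overlapped, as in the hippocampal formation for the second Egr4 probe set (up to 12.1 in deprived, down to 3.7 in recovery) and for Egr3 (up to 14.6 in deprived, down to 14.4 in recovery).

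The arrays of set 1 gave the technical error of each tested gene. Between the 2 arrays of a pool Egr1 differed by 0.0379 to 0.228 (median 0.0864), Egr2 by 0.0657 to 0.524 (median 0.339) and Egr4 by 0.151 to 0.81 (median 0.354) on the log2 scale. The median kept probe set differed by 0.123 to 0.193, so Egr1 was more even than most and Egr2 and Egr4 less. Egr4 was least even in the neocortex, with 63.0 and 107.4 on the control arrays and 125.2 and 71.4 on the recovery arrays. The neocortical differences of Egr4 between states were smaller than these gaps.

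Egr1, Egr2 and Egr4 varied together over the 12 pools. With the mean of its structure and set removed from each value, Pearson's r was 0.914 for Egr1 and Egr2, 0.783 for Egr1 and Egr4 and 0.704 for Egr2 and Egr4 (0.734, 0.84 and 0.655 without that step). The pools of the structures came from the same rats, and the genes were read on the same arrays, so these are descriptions. By the same measure Egr1 was most like Ube4b (0.96), Vps36, Acvr1, Dennd10 and Rpe (0.935). Egr2 was most like Spry2 (0.963), an inhibitor of receptor tyrosine kinase signalling, followed by Ptprj, Cisd2, Tmtc3 and Ap3m1 (0.948). Egr4 was most like Eif4e (0.951), which encodes the cap-binding translation factor, followed by Ssu72, Art1, Sec22a and Doc2b (0.934). These genes were picked as the highest among the 10294 kept genes, and no background of correlations is given. Spry2 had log2 differences from control of 0.21 and 0.23 in deprived and recovery neocortex and of 0.01 and 0.31 in the hippocampal formation. Those of Eif4e were small, at 0.02 and -0.01 in the neocortex and -0.09 and 0.07 in the hippocampal formation.

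Among the kinases and transcription factors that act upstream of the Egr genes, and the phosphatases and inhibitors that restrain them, 20 of 21 genes on the array were kept and none passed the test between states (0% of all kept probe sets did). In deprived neocortex 13 were above and 7 below control (median log2 difference 0.071), in deprived hippocampal formation 15 and 5 (0.0683), in recovery neocortex 15 and 5 (0.0729) and in recovery hippocampal formation 12 and 8 (0.0424). Over all kept probe sets the medians were 0.00872, 0.00397, 0.000415 and 0.006 in that order. Dusp6, an ERK phosphatase, was at 0.32 in deprived neocortex, and Dusp5, another, at 0.69 in recovery hippocampal formation, each with a limma adjusted p = 1. Creb1 was at 0.43 in deprived hippocampal formation, where no Egr gene was above control (limma adjusted p = 1). Between structures 7 of the 20 passed, beside 19.9% of all kept probe sets. Among the 7 were Dusp1, a MAP kinase phosphatase (-0.78, limma adjusted p = 0.00051), lower in the hippocampal formation like Egr1, and Dusp6 (0.32, limma adjusted p = 0.00509), higher there.

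The partners and relatives of Egr proteins, 7 of 9 kept, had medians of 0.0575 in deprived and 0.0619 in recovery neocortex (6 above and 1 below control in each) and of -0.0244 and -0.00342 in the hippocampal formation (3 above and 4 below in each). None passed the test. Nab1 and Nab2, the corepressors that bind Egr proteins and of which Nab2 is itself induced by them, were at 0.16 and -0.18 in recovery neocortex, with a limma adjusted p = 1. Ep300, a coactivator, was at -0.37 in recovery hippocampal formation (-0.36 and -0.37 in the sets, limma adjusted p = 1).

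Of the genes described as Egr targets 10 of 14 were kept. In recovery hippocampal formation 9 were above and 1 below control (median 0.0998), in deprived neocortex 6 and 4 (0.0194), in recovery neocortex 3 and 7 (-0.0758) and in deprived hippocampal formation 3 and 7 (-0.0438). Arc, which encodes a synaptic protein of active neurons, was at 0.93 in deprived neocortex (0.91 and 0.96 in the sets, limma adjusted p = 1, or 0.0113 with the set as a block). In recovery neocortex Arc was back at 0.03 from control, and -0.91 from the deprived state (limma adjusted p = 1, or 0.0309 with the block). Egr1 and Egr2 were at 0.235 and 0.72 from control in those recovery pools, and the difference between the genes was not tested. In the hippocampal formation Arc was at -0.06 in deprivation and 0.48 in recovery, each with a limma adjusted p = 1. The contrast between structures in recovery against deprived was 1.45 for Arc (limma adjusted p = 1, or 0.00906 with the block). Per1, a clock gene, was at -0.53 and Cdk5r1, an activator of the kinase Cdk5, at -0.4 in recovery neocortex (limma adjusted p = 1). Syn2, a synaptic vesicle gene, was higher in the hippocampal formation (0.25, limma adjusted p = 0.0235), where Egr1 was lower.

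The other fast activity-regulated genes, 16 of 22 kept and Arc among them, lay on the side of Egr1 and Egr2 in deprived neocortex, with 14 above and 2 below control (median 0.157). They were split 8 and 8 in recovery neocortex (median 0.00921) and 8 and 8 in deprived hippocampal formation (0.00964), and 14 were above and 2 below control in recovery hippocampal formation (0.163). Of all kept probe sets 52.5%, 50.2%, 51.2% and 51.9% were above control in that order. None of the 16 passed the test between states. Nr4a1, an orphan nuclear receptor, was at 0.59 in deprived neocortex (limma adjusted p = 1), and Nr4a3, its relative, at 0.37 and 0.47 in recovery neocortex and hippocampal formation (limma adjusted p = 1). Between structures 6 of the 16 lay above 0 and 10 below. The test called 2 of them higher and 4 lower in the hippocampal formation, beside 19.9% of all kept probe sets called. Nr4a3 was 1.6 higher on the log2 scale in the hippocampal formation than in the neocortex (limma adjusted p = 3.95e-05), opposite to Egr1. Ier3 was lower there (-0.91, limma adjusted p = 0.00164), like Egr1. Sik1, a kinase that restrains CREB coactivators, was at 0.95 in recovery neocortex, with 0.25 in set 1 and 1.64 in set 2 (limma adjusted p = 1).

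**Figure D5:**
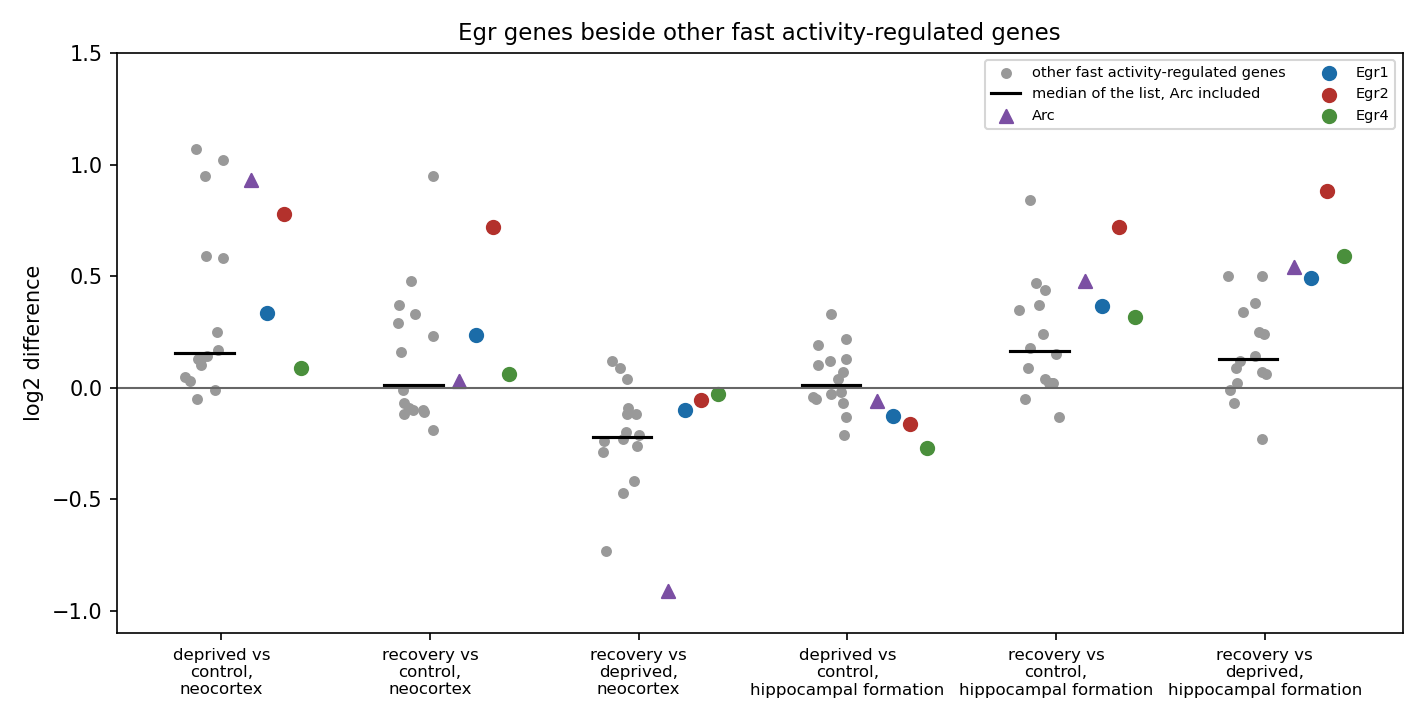
Log2 differences of Egr1, Egr2, Egr4 and Arc beside the other kept fast activity-regulated genes (grey points) and the median of their list of 16 genes with Arc included (bar), for 6 comparisons of states. In recovery against control in the neocortex Egr2 (0.72) lies far above the list median (0.00921), and Arc (0.03) close to it.

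Myelin genes that Egr2 controls in Schwann cells were read because Egr2 is best known there. Of 7 on the array 6 were kept, and none passed the test between states. In deprived neocortex 4 were above and 2 below control (median 0.0937), and Sox10, a glial transcription factor, was at 0.33 (0.32 and 0.35 in the sets, limma adjusted p = 1). In the hippocampal formation 0 of 6 were above control in deprivation (median -0.076) and 5 of 6 in recovery (0.047). Pmp22, a myelin protein gene, was higher in the hippocampal formation (0.36, limma adjusted p = 0.00878), while Egr2 did not pass that test. That test was passed by 19.9% of all kept probe sets. Of the Schwann cell and meningeal markers, 5 of 5 kept ones passed it, 3 lower and 2 higher in the hippocampal formation (median -0.716). They summed to 536 to 782 in the neocortical pools and 379 to 676 in the hippocampal pools, with none at 0. T and B cells also express Egr2 and Egr3, and of their 5 markers on the array 0 were kept.

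Markers of blood, choroid plexus and hippocampal neurons had different levels beside the Egr values in recovery, none passing the test between states. The 3 red cell genes kept, of 3, were below control in recovery of both structures (median log2 difference -1.08 in the neocortex and -1.19 in the hippocampal formation), with none at 0, and their median was -0.18 in deprived neocortex. Their summed signal was 816 to 1050 in recovery neocortex against 1680 to 2210 in control and 1590 to 1740 in deprived neocortex. In the hippocampal formation it was 985 to 991 in recovery, 1510 to 2920 in control and 1160 to 2000 in deprivation. Choroid plexus genes, 3 kept of 5 on the array and none at 0, were 3 of 3 above control in recovery neocortex (median 0.629) and 3 of 3 below it in recovery hippocampal formation (-0.669, and -1.19 from the deprived state). Their summed signal ran from 362 to 1190 in recovery, 476 to 4610 in deprived and 1300 to 2800 in control hippocampal formation, and from 770 to 2210, 524 to 1590 and 140 to 1870 in the neocortical groups. Hippocampal neuron markers were above control in 8 of 9 in recovery neocortex (median 0.231, summed signal 834 to 867 against 746 to 754), and in 8 of 9 in recovery hippocampal formation (0.139, 2060 to 2570 against 2010 to 2070). These markers were also above control in 8 of 9 in deprived hippocampal formation (median 0.173), and in 5 of 9 in deprived neocortex (0.0027). Recovery against deprived hippocampal formation had a median of 0.0115, with 6 of 9 above 0. The beta-actin 3'/5' ratio, a measure of RNA integrity, was 2.68 and 2.61 in control, 2.98 and 2.35 in deprived and 3.17 and 2.83 in recovery neocortex, and 2.33 to 2.52 in the hippocampal pools. The part of these in the Egr values was not tested.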

How the data were processed

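Biotin-labelled cRNA made from the RNA pools was measured on Affymetrix rat arrays, per the labels' protocols. The deposited values are linear probe set intensities, called signals here, made with MAS5 per the submitters' processing notes. Its version and scaling target are not given in the sources used here. The mean signal with 2% trimmed at each end was 100 on every array, which shows a common scale. Median signals were 32.1 to 37.1 per array. The treatment protocol may mean that the 6 h of recovery came after 78 h and not 72 h of deprivation. The hours given here follow the sample labels.

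Signals were raised to a floor of 1 and log2-transformed, with no further normalization, so folds are on that scale. Technical arrays of a pool were averaged, 57 control probe sets were left out, and the lowest 40% by mean (log2 under 4.3) were dropped. The annotation gave 20832 probe sets 1 symbol, 436 several and 9831 none, and only those with 1 were named. Levels of different probe sets were not compared.

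limma 3.58.1 (R 4.3.3; lmFit, and eBayes with an intensity trend) was fitted to the 6 groups over 12 pools, which share an estimate of the spread. Differences between structures used the hippocampal minus neocortical value of 6 animal pools. Benjamini-Hochberg adjustment covered all 18625 kept probe sets, over 10 comparisons, with a call at an adjusted p under 0.05. The procedure was tested on simulated data. Each gene in a list was read from its brightest probe set. Named were every Egr probe set and, for each tested Egr gene, the 5 genes of highest correlation. Genes named from a list were among its up to 4 called members in a comparison, or else the 2 with the smallest p. Not every gene that met this rule was named. Values of these genes in other comparisons are given beside those for contrast. Members and lists were chosen with earlier results of these data known.

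The replicate number names a set of rats. Pools with the same number deviated together from the means of their groups (r from 0.539 to 0.682 in 1 structure, from 0.182 to 0.387 across structures). This rests on 2 pools per group, and no label says that equal numbers share a day or litter. Alternatives were the set as a block, quantile normalization, a floor of 16, log2(signal + 16), no filter, 1 technical array, the pools of 1 structure, the pool as a random block and leaving out pools. Promoters came from a RefSeq table. Figures used matplotlib 3.10.9, Python 3.11.15.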

Additional observations from a re-analysis of the deposited data

Results flagged for a closer look

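For 3 contrasts both sets of rats moved one way in the neocortex and the opposite way in the hippocampal formation. The hippocampal minus neocortical difference in deprived against control was -0.46 for Egr1 (log2 changes of 0.422 and 0.245 in the neocortex, -0.136 and -0.114 in the hippocampal formation) and -0.94 for Egr2 (0.522 and 1.031, -0.081 and -0.247). This pattern of signs was shared by 5.4% of kept probe sets. In recovery against deprived it was 0.59 for Egr1 (-0.067 and -0.131 in the neocortex, 0.69 and 0.297 in the hippocampal formation), a pattern shared by 7.27%. limma's test of each difference over all kept probe sets gave an adjusted p = 1. With 1 animal pool left out, the values ran from -0.57 to -0.35, from -1.45 (without control set 1) to -0.43 (without control set 2) and from 0.48 to 0.7, in the order given. Groups of 2 pools are too small for a test of an outlying pool.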

How the results depend on the processing

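For Egr1, Egr2 and Egr4, 254 values under other settings kept direction and side of the threshold, 8 turned sign and 2 lost a call. With a pool left out 109 kept both, 11 turned sign and 6 lost a call. Differences of these genes between states had no call to lose, so the side of the threshold says little about them. The calls between states, 0 in each comparison, became 2 for deprived against control in the neocortex, 1 for recovery against deprived there and 2 for its contrast between structures with the replicate block, which called no Egr gene (adjusted p 0.309 to 0.996 for the comparisons within a structure and 0.383 to 1 for the contrasts). Treating the pool as a random block gave 2 in the first of these. Between structures the calls numbered 8006 with the replicate block and 1625 to 4507 with 1 animal pool left out: 2171 without control set 1, 1625 without deprived set 1, 2338 without deprived set 2 and 1790 without recovery set 1. With 1 pool left out, the lone pool is assumed to vary like the other groups, and 0 to 0 probe sets were called between states.

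Several of the smaller differences turned sign. With log2(signal + 16) the contrast of Egr2 in recovery against control was 0.01, and with the second technical array only it was 0.28. With the first technical array only, Egr2 in recovery against deprived neocortex was 0.1, Egr4 there was 0.27, and the Egr4 contrast in recovery against control was -0.05. With the second only, Egr4 in the neocortex was -0.01 for deprived and -0.33 for recovery against control. With the pool as a random block Egr4 in recovery against deprived neocortex was 0.03. Leaving out pools gave -0.28 to 0.03 for Egr1 and -0.43 to 0.1 for Egr2 in deprived hippocampal formation, -0.51 to 0.51 for the Egr2 contrast in recovery against control (0.51 without control set 2, 0.22 without recovery set 2), and -0.17 to 0.06 for Egr2 in recovery against deprived neocortex (0.06 without recovery set 2). For Egr4 in the neocortex they gave -0.11 to 0.29 for deprived against control (-0.11 without deprived set 2), -0.04 to 0.16 for recovery against control (-0.04 without recovery set 1) and -0.23 to 0.17 for recovery against deprived (0.17 without deprived set 2, 0.07 without recovery set 2). The lower hippocampal Egr4 missed the threshold with the first (adjusted p = 0.0835) or second technical array only (adjusted p = 0.0619, limma). The cause was not tested. Without the hippocampal pools of set 2, chosen after seeing the data, the hippocampal recovery against control values were 0.55, 1.32 and 0.36 for Egr1, Egr2 and Egr4. The number of arrays limits the precision.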
